A study of Homo sapiens with 6 samples.

Results

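Among the USP39 binding sites mapped in HEK293T, a cell line of human embryonic kidney origin, 396 of 34781 (1.14%) lay in C/D box snoRNA genes. A site was taken as a member when its central base fell in the span of a gene whose RefSeq symbol starts with SNORD. The table held 362 such genes, of which 357 were typed as snoRNA and 5 as pseudogenes, and 149 of them held a member. USP39 belongs to the tri-snRNP, the spliceosome's complex of U4, U6 and U5, and the assay, iCLIP2, maps where UV light linked a protein to RNA. The 6 libraries came from wild-type cells irradiated at 254 nm and precipitated with an anti-USP39 antibody, in 2 groups of 3 replicates that differ only in the piece of membrane cut, low or high. The deposited list merges libraries, each site is 5 nt wide and has a score of 0, and no value belongs to one library. No value below therefore has a replicate error, the groups could not be compared, and no test was made of any difference; the Wilson intervals given cover counting error at 95% within 1 list, and sites of 1 gene share their source, so they are narrower than the true spread. How many reads a site rests on is unknown, and a control without UV light and the abundance of the RNAs were not analysed here.

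C/D box snoRNAs are short nucleolar RNAs, most of them cut from introns of a host gene after splicing. They are named for box C, near the 5' end, and box D, near the 3' end, with copies called C' and D' in between. The boxes are bound by SNU13, NOP56, NOP58 and fibrillarin, and the bases just before box D or D' pair with a target RNA and place a 2'-O-methyl group on it. Most known targets are in ribosomal RNA, a few are in U6 snRNA, some snoRNAs act in cutting the ribosomal precursor, and others, called orphans, have no known target. SNU13 also binds U4 snRNA in the tri-snRNP.

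Sequence was at hand for 2 of the genes, because RefSeq start windows of UBAP2 and RPL17-C18orf32 (assembly GRCh38.p14) run across SNORD121B and SNORD58B. They are shown because they let the position of each site be read against the boxes. SNORD58B is given whole, and SNORD121B for the first 61 of its 79 bases, both on the minus strand and from 5' to 3'. Capitals mark the 5 bases of each member. A further site of SNORD58B, chr18:49491729-49491733, is centred before the gene. It covers the first base of the stretch, which is left in lower case. The first stretch is chr9:33934315-33934375 and the second chr18:49491664-49491729.

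SNORD121B: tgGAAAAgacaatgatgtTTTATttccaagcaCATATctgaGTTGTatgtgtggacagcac

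SNORD58B: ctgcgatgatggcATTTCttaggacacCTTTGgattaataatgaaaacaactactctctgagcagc

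The full box C motif (ATGATGA or GTGATGA, searched on both strands) and its last 6 letters (TGATGA, which the full motif contains) had no match in either stretch. Its core TGATG, searched after the longer motifs had failed, occurred once in each, on the RNA strand, starting at position 7 of SNORD58B and position 13 of SNORD121B. Among the 35116 start windows of the table, 4.27% hold TGATG on the sense strand in a stretch of 66 nt and 8.21% hold it on either strand. In the first 20 transcribed bases the shares are 1.19% and 2.22%. In SNORD58B the sites were centred 9 and 23 nt after the start of TGATG. In SNORD121B members were centred 8, 22 and 31 nt after the start of TGATG, and 1 more lay 8 nt before it. Both genes thus had a site before the core. The site bases closest behind the core were TTTAT in SNORD121B and ATTTC in SNORD58B. None of the 6 members, nor the further site of SNORD58B, covered a base of TGATG. The motif CTGA, searched for box D or D', occurred at position 58 of SNORD58B, beyond its last site. In SNORD121B it occurred at position 38, between the sites centred on 35 and 44. The 3' part of SNORD121B, where box D would lie, was not at hand. CTGA is frequent, since 27.5% of windows of 66 nt hold it on the sense strand and 47.5% on either strand.

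The sites were spread over many C/D box genes rather than concentrated in a few. A site was present in 149 of 362 genes (41.2%, Wilson interval 36.2% to 46.3%). Of all 59792 genes in the table, 9.85% held a site, and of the 6923 other genes with a length in the range of the C/D box genes, 33 to 237 nt, 5.79% did. Of the 149 genes, 23 had 1 site, 42 had 2, 53 had 3 and 28 had 4. SNORD92, a 28S rRNA guide in WDR43, had 7 sites, at positions 1, 15, 20, 25, 32, 38 and 47 of 89. SNORD17, also a 28S guide and at 237 nt the longest gene, had 6, at positions 20, 73, 81, 123, 161 and 196. SNORD91A, a 28S guide in TSR1, had 5, at positions 5, 21, 29, 42 and 52. Positions here and below are those of the central base along the RNA, given the site's strand, with the first base of the gene at its 5' end as 1.

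The 28 genes with 4 sites lay in protein-coding and noncoding hosts. They included SNORD76, SNORD77 and SNORD79 in GAS5, SNORD1A, SNORD1B and SNORD1C in SNHG16, SNORD11, SNORD11B, SNORD70 and SNORD70B in NOP58, SNORD100 and SNORD101 in RPS12, and SNORD121A and SNORD121B in UBAP2. SNORD2 in EIF4A2, SNORD6 in TAF1D, SNORD15B in RPS3, SNORD18B in RPL4, SNORD45A in RABGGTB, SNORD60 in SNHG19, SNORD61 in RBMX, SNORD83A in RPL3, SNORD90 in RC3H2, SNORD97 in EIF4G2, SNORD104 in SNHG25, SNORD143 in SEC31A, SNORD118 in TMEM107 and SNORD13, which has no host, made up the rest. In genes with a site the density was 30.9 sites per kb. Neighbouring sites of a gene were 14 nt apart in the median (quartiles 8 and 19 nt, 247 intervals). The smallest distance, 5 nt, means that the sites abut, and it occurred 20 times.

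No C/D box gene had sites on both strands. A single strand was known from the RefSeq windows of the genes around it for 121 of the genes with a site, and in 120 of these the sites lay on that strand. The exception was SNORD21, which lies in both RPL5, its host by the rule used here, and a gene of the other strand, DIPK1A.

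A group of sites lay at the annotated 5' end itself. Sites centred from position -2 to 2, where 0 is the last base before the gene, numbered 105 and fell in 105 different C/D box genes, 1 in each. Of these, 30 were centred on -1, 30 on 0, 24 on 1 and 16 on 2. The 65 centred before position 1 are outside the gene and are not among the 396 members. Whether the sites from -2 to 2 reflect a contact of USP39 with the 5' end was not tested. The next 5 positions upstream, -7 to -3, held 5 sites, and the 60 nt upstream held 13 beyond position -2. The 60 nt downstream of the genes held 7. Of the 105 genes, 97 also had a site past position 2. The other 8 consisted of 4 whose only members lay at positions 1 or 2, and 4 with no member at all, SNORD7, SNORD23, SNORD29 and SNORD31. With sites at -2 to 0 admitted, 153 C/D box genes had a site.

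The same end group was present in the related families. In the 182 H/ACA box genes (SNORA), whose RNAs guide pseudouridylation, 80 sites in 80 genes were centred from -2 to 2. In the 29 small Cajal body RNA genes (SCARNA), whose RNAs modify snRNAs, 18 sites in 18 genes were. The group sat slightly further upstream in H/ACA box genes, with 72 of 80 sites before position 1 against 65 of 105 in C/D box genes; the difference was not tested.

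**Figure D1:**
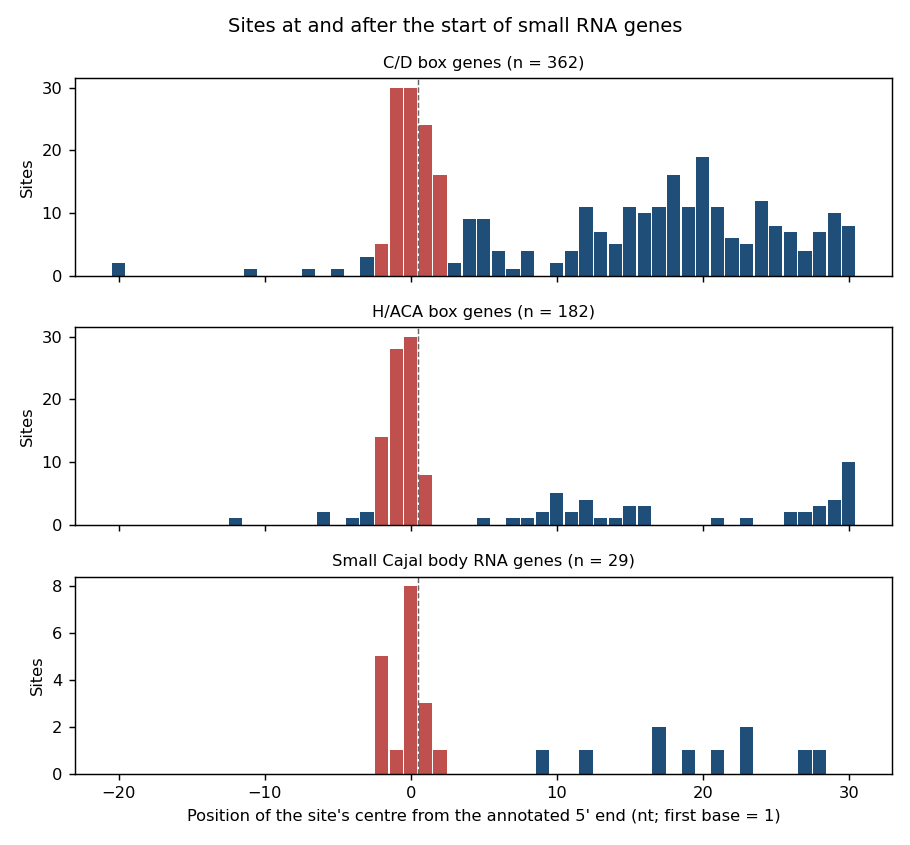
Number of sites by the position of their centre from the annotated 5' end (nt, first base = 1, dashed line at the gene start) in C/D box, H/ACA box and small Cajal body RNA genes. Red bars are positions -2 to 2, which hold 105, 80 and 18 sites, and in C/D box genes a second broad group follows at positions 12 to 21.

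Inside the C/D box genes the sites formed a second group after the end group. Positions 3 to 5 held 20 sites and positions 6 to 11 held 15, or 3.89 per position over 3 to 11 and 2.5 per position over 6 to 11. Positions 12 to 21 held 112 sites in 100 genes, or 11.2 per position. Positions 22 to 37 held 121 sites in 98 genes, 7.56 per position, and positions 38 to 54 held 54 sites in 48 genes, 3.18 per position. In the 145 genes with a site past position 2, the first such site was centred on position 16 in the median, with quartiles of 12 and 20. These position ranges were drawn after the profile was seen.

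The first 20 nt held 176 of the 396 sites (44.4%, Wilson interval 39.6% to 49.4%), while they make up 23.2% of the length of the genes with a site. In H/ACA box genes the first 20 nt held 32 of 256 sites (12.5%, interval 9.0% to 17.1%) in 14.3% of the length. In small Cajal body RNA genes they held 9 of 92 (9.78%, interval 5.23% to 17.6%) in 9.32%. The median position was 23.5 in C/D box genes, 65.5 in H/ACA box genes and 102 in small Cajal body RNA genes, which are longer (median lengths 81, 134 and 148 nt). When the sites at -2 to 0 were admitted, the shares were 52.3% in C/D box genes (interval 47.7% to 56.8%), 31.7% in H/ACA box genes (26.9% to 36.9%) and 21.7% in small Cajal body RNA genes (14.9% to 30.5%), so that the families lay closer together.

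The 3' end of the RNAs held few sites. Every C/D box site was centred at least 22 nt from the annotated 3' end. The closest were the site at position 51 of SNORD68 (22 nt, both ends counted), the site at 52 of SNORD50A (24 nt) and the site at 49 of SNORD61 (25 nt). In the 138 genes with a site that are shorter than 120 nt, the last site was centred on position 34 in the median (quartiles 24 and 43.75), which left 44.5 nt to the 3' end. In the 11 genes with a site of 120 nt or more it was centred on position 94 (quartiles 71.5 and 131.5), which left 57 nt. The lowest distance from the 3' end was 12 nt in H/ACA box genes and 25 nt in small Cajal body RNA genes. Whether sites closer to the 3' end could have been called in such short RNAs was not tested.

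**Figure D2:**
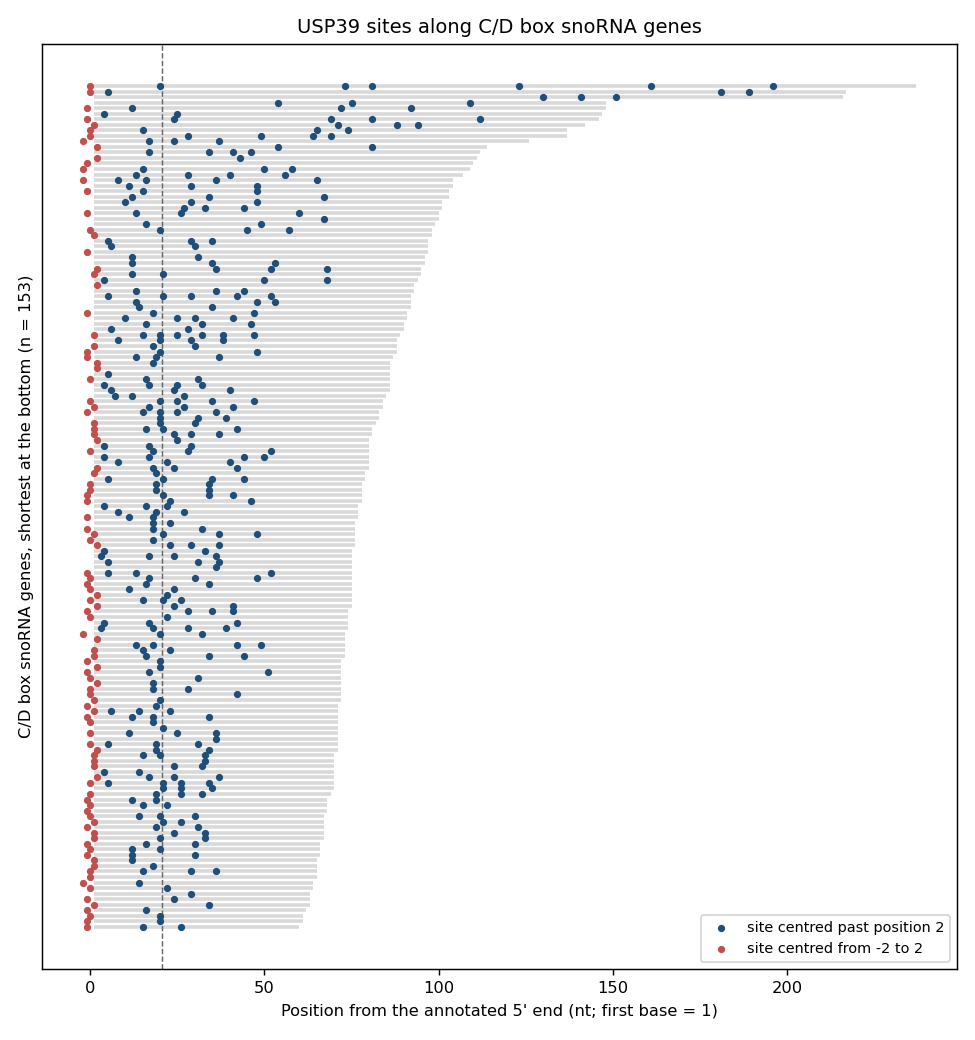
Each grey line is 1 of the 153 C/D box genes with a site in the gene or up to 2 nt before it, sorted by length, and each point is the centre of a site (nt from the annotated 5' end). Red points are the 105 sites at -2 to 2, the dashed line closes the first 20 nt, and the right-hand part of the lines stays free of points.

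Nearly all guides of rRNA methylation carried sites. With the SNORD14 genes, which also act in rRNA processing, 105 rRNA guides had a site (90.5% of them, Wilson interval 83.8% to 94.6%), with 280 sites. Without the SNORD14 genes it was 100 of 111 (90.1%, interval 83.1% to 94.4%). The 18S guides had a site in 37 of 42 genes (88.1%, interval 75.0% to 94.8%) and the 28S guides in 59 of 63 (93.7%, interval 84.8% to 97.5%), so that the intervals overlap. Of the 5.8S guides SNORD71, SNORD96A and SNORD96B, 2 had 1 site each, SNORD71 at position 5 and SNORD96A at position 20. The 11 rRNA guides without a site were SNORD19, SNORD29, SNORD31, SNORD32B, SNORD49B, SNORD62A, SNORD62B, SNORD88B, SNORD96B, SNORD103A and SNORD103B. SNORD29 and SNORD31 had a site at the end, centred on 0 and -1. Of the others, SNORD19, SNORD32B, SNORD49B, SNORD88B, SNORD96B, SNORD103A and SNORD103B have a like-named copy that had sites. How reads that match several near-identical copies were treated is not given in the sources used here, so the split of sites between such copies is uncertain.

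Each guide of U6 snRNA methylation had a site at its 5' end. U6 is the snRNA that pairs with U4 in the tri-snRNP and later forms the active centre of the spliceosome. Of the 6 guides, 5 held a member (83.3%, Wilson interval 43.6% to 97.0%), 13 in all. SNORD8 and SNORD9, which lie in CHD8, shared a site centred on position 15 and also had sites at -2 and -1. SNORD8 had further sites at 50 and 58, and SNORD9 at 48. SNORD94 in PTCD3 had sites at 0, 15, 65 and 74. SNORD10 in EIF4A1 had sites at -1, 12, 72 and 92. SNORD67 in CKAP5 had sites at 2 and 43. SNORD7 had only the site at -1, at chr17:35573653-35573657, and thus no member. Among all 362 C/D box genes, 105 had a site from -2 to 2. These are 105 of the 153 genes with a site in the gene or up to 2 nt before it. A site at the 5' end was thus common among C/D box genes with sites, and 6 guides are too few to set the U6 guides apart.

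**Figure D3:**
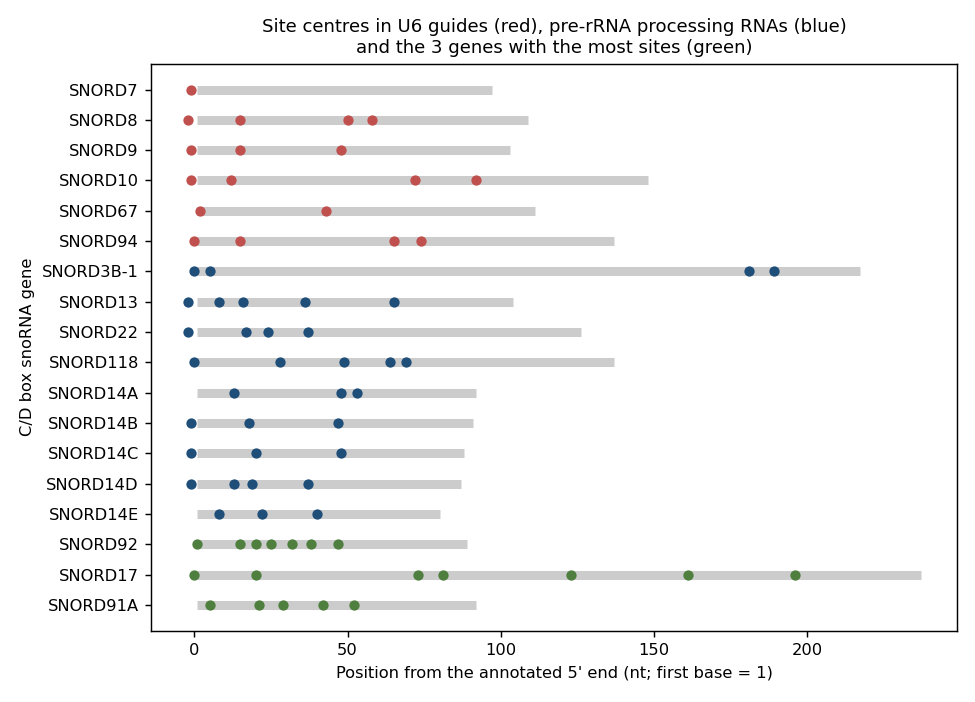
Site centres (nt from the annotated 5' end) along the genes of the U6 guides (red), of the RNAs of pre-rRNA processing (blue, SNORD14 copies included) and of the 3 genes with the most sites (green); grey bars span the genes. All 6 U6 guides have a point at -2 to 2, and the points of SNORD17 reach position 196.

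Some snoRNAs that act in cutting the ribosomal precursor also carried sites. Leaving SNORD14 aside, 4 of 15 such genes had a member (26.7%, Wilson interval 10.9% to 52.0%), beside 41.2% of all C/D box genes. SNORD118 (U8), needed for the 28S and 5.8S rRNAs, had members at positions 28, 49, 64 and 69 of 137 and a further site at 0. SNORD22 (U22), in SNHG1, had members at 17, 24 and 37 of 126 and a further site at -2. SNORD13 (U13) had members at 8, 16, 36 and 65 of 104 and a further site at -2. Of the 12 U3 genes (SNORD3), 1 had a member, SNORD3B-1, with sites at 5, 181 and 189 of 217 and a further site at 0. Of the 12, 8 are 210 to 217 nt long and the others are shorter, down to 92 nt; the split of sites between near-identical copies has the same limit as above. All 5 SNORD14 (U14) genes, which both guide methylation of 18S rRNA and act in its processing, had members. SNORD14B and SNORD14C in RPS13 and HSPA8 had sites at 18 and 47 and at 20 and 48, each with a further site at -1, and SNORD14A in RPS13 had sites at 13, 48 and 53. SNORD14D in HSPA8 had sites at -1, 13, 19 and 37, and SNORD14E, in the same host, at 8, 22 and 40.

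The orphan C/D box genes were without sites in the imprinted clusters and mostly had them elsewhere. Of 133 orphans, 8 had a site (6.02%, Wilson interval 3.08% to 11.4%). The 9 SNORD113, 31 SNORD114, 48 SNORD115 and 30 SNORD116 genes, which lie in imprinted clusters and are known for expression in brain, had 0 sites in 118 genes, which allows a share of up to 2.54% (Wilson upper limit 3.15%). The copies of these families are not independent of each other, and the unknown treatment of reads that match several copies bears on this 0 too. The hosts of these clusters were nearly free of sites as well. MEG8 held 0 in chr14:100889649-100999113, and SNHG14 held 1 in chr15:24823608-25419462, on the minus strand while SNHG14 is on the plus strand. Of the other 15 orphans, 8 had a site (53.3%, interval 30.1% to 75.2%), with 20 sites. Of these 15, SNORD64, SNORD107, SNORD108, SNORD109A and SNORD109B lie in SNHG14 and SNORD112 lies in the span of MEG8, and none of the 6 had a site. Outside both spans 8 of 9 orphans had a site (88.9%, interval 56.5% to 98.0%), SNORD23 being the one without a member. The 8 were SNORD90 with members at 13, 28, 40 and 56, SNORD83A at 2, 36, 52 and 68, SNORD101 at 1, 16, 34 and 44, SNORD89 at 2, 54 and 81, SNORD84 at 19 and 34, SNORD86 and SNORD83B at 2, and SNORD117 at 18. A further 92 genes were not classed by target, and 27 of them (29.3%) had a site.

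**Figure D4:**
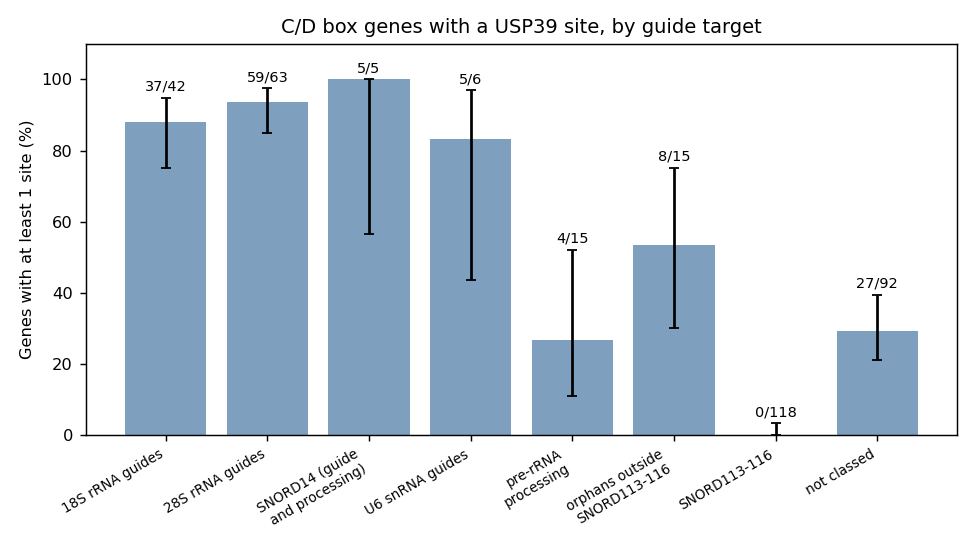
Percentage of C/D box genes with at least 1 site, by the RNA they guide, with 95% Wilson intervals and the counts above each bar. The 18S and 28S guides stand at 88.1% and 93.7%, and SNORD113 to SNORD116 at 0 of 118.

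In some families the copies had sites at like positions. In SNORD58, whose 3 genes lie in RPL17, SNORD58A had sites at 15, 29 and 36, SNORD58B at 16 and 30, and SNORD58C at 16, 32 and 46. In SNORD1 only the earlier positions were alike, with SNORD1A at 3, 18, 28 and 39, SNORD1B at 4, 17, 25 and 32, and SNORD1C at 4, 17, 44 and 50. In SNORD18, SNORD18A had sites at 21, 26 and 35, SNORD18B at 5, 21, 26 and 34, and SNORD18C at 1, 20 and 33. Other families were less alike in their members, such as SNORD45, with SNORD45A at 20, 25, 35 and 47, SNORD45B at 11, 25 and 36, and SNORD45C at 23 and 46. These lists leave out sites at -2 to 0, which are not members. SNORD45A, SNORD45B, SNORD58A and SNORD18B had such a site at 0, and SNORD45C and SNORD58B at -1. In SNORD36 all 3 genes had members, 7 in all, and in SNORD12 all 3, also with 7. SNORD19 had members in 2 of 3 genes, SNORD88 in 2 of 3, SNORD38 in 2 of 4, SNORD65 in 1 of 3, SNORD103 in 1 of 3 and SNORD13 in 1 of 14. Since copies share sequence, like positions in them are not independent observations, and alike is said here of the listed positions only. Positions 12 to 21 held a site in 100 of the 149 genes with a member, so likeness within that range is not particular to copies.

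Most sites lay in snoRNAs of protein-coding hosts, where most C/D box genes outside SNORD113 to SNORD116 also lie. By span, 304 of the 396 sites (76.8%, Wilson interval 72.4% to 80.7%) lay in snoRNAs within protein-coding genes, 79 (19.9%) in snoRNAs within lncRNA genes, and 13 (3.28%) in snoRNAs with neither around them. Without SNORD113 to SNORD116, 175 snoRNA genes lie in protein-coding genes, 45 in lncRNA genes and 24 in neither. A site was present in 112 of the 175 in protein-coding genes (64.0%, interval 56.7% to 70.7%). It was present in 32 of the 45 in lncRNA genes (71.1%, interval 56.6% to 82.3%) and in 5 of the 24 others (20.8%, interval 9.24% to 40.5%). Without SNORD113 to SNORD116, the share of genes with a site was thus not higher in protein-coding than in lncRNA hosts. With these families counted, it was 32 of 163 in lncRNA genes (19.6%, interval 14.3% to 26.4%) and thus lower than the 64.0% in protein-coding genes. Of 137 hosts, 73 had a site in at least 1 of their C/D box genes, and 144 of the 152 C/D box genes of these 73 had a site. All 17 hosts that encode ribosomal proteins were among the 73, and 39 of their 41 C/D box genes had a site, with 101 sites or 25.5% of all members. Of 42 hosts with at least 2 C/D box genes, 32 had a site in every one of them, and 4 (MEG8, SNHG14, KIF9 and PRRC2B) had a site in none.

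GAS5, a noncoding host whose exons have no long reading frame, led with 25 sites in 10 of 10 C/D box genes, from 1 site each in SNORD44 and SNORD80 to 4 each in SNORD76, SNORD77 and SNORD79. NOP58, which encodes a core protein of the C/D box particle, had 16 in 4 of 4. RPL4 had 13 in 4 of 4, and the noncoding SNHG1 had 13 in 6 of 8, the 2 without a member being SNORD29 and SNORD31. SNHG16 had 12 in 3 of 3, and so did WDR43, which encodes a protein of the early ribosomal precursor. GNL3, the gene of nucleostemin, had 11 in 4 of 5, with 0 in SNORD19. RPL13A had 10 in 4 of 4. NOP56, the gene of another core protein, had 8 in 4 of 4.

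Within the hosts that have a member, sites were denser in the C/D box genes than elsewhere. In each of the 73 hosts with a member, the C/D box genes held more sites per kb than the rest of the host's span on its strand, snoRNA genes left out. The medians were 28.6 and 2.02 sites per kb. Having a member is how these hosts were chosen, so the direction is largely fixed by that choice. In most of the 73 hosts, 1 site in their C/D box genes would have been enough. This holds for long hosts with few sites elsewhere, such as UBAP2, WDR43 and NOP58, and for short ones such as EEF2 and RPS12. Others, among them GAS5, SNHG1, RPL4 and NOP56, would have needed more than 1. Hosts without a member were left out, among them PRRC2B with 104 sites outside snoRNA genes and FASN with 85. The rest of the span mixes exons and introns, which were not known. The densities were 35.0 and 7.14 per kb in GAS5, 21.0 and 8.51 in SNHG1, 42.3 and 5.66 in RPL4, 44.6 and 0.479 in NOP58, and 49.0 and 0.206 in WDR43. UBAP2, a long gene that hosts SNORD121A and SNORD121B, had 47.1 and 0.0628.

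**Figure D5:**
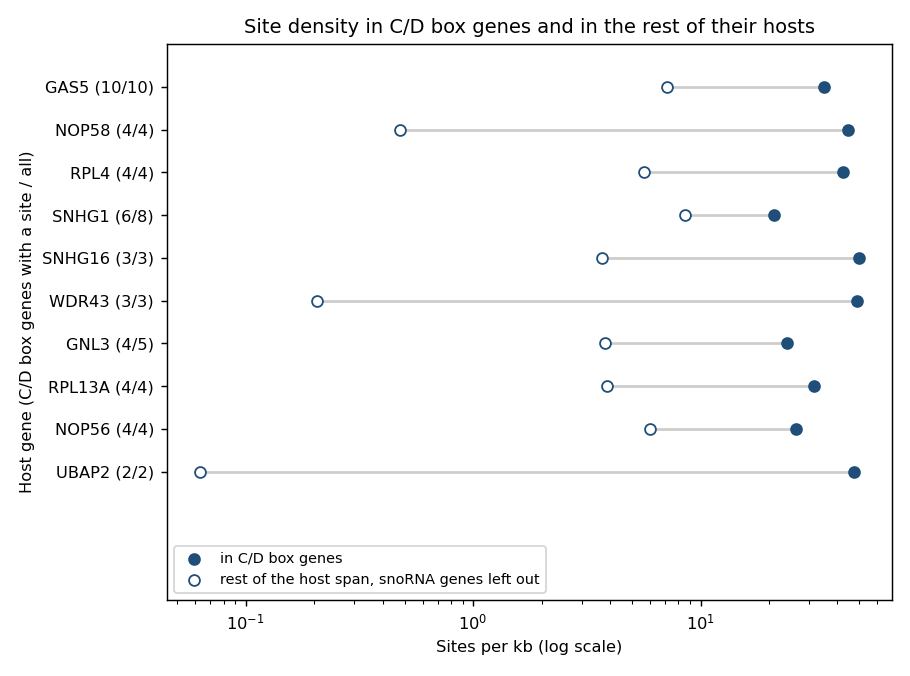
Sites per kb (log scale) in the C/D box genes of 10 of the hosts named in the text (filled points) and in the rest of each host's span on its strand (open points); brackets give C/D box genes with a site of all. Every filled point lies to the right of its open point, from 35.0 against 7.14 in GAS5 to 47.1 against 0.0628 in UBAP2. All 10 hosts were chosen for having a member, which partly fixes this direction.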

How the data were processed

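The authors deposited 1 BED list of merged sites whose score is 0 throughout, so the deposited score was not used. The submitters' processing notes name the build GRCh38.p12, UMI-tools 1.1.2, STAR 2.7.3a, bedtools 2.29.2, SAMtools 1.10 and FastQC 0.11.9, without their roles. Which site caller was run, and on which libraries, is not given in the sources used here. Genes came from a RefSeq table of GRCh38.p14 without strand or exons, and start windows (250 nt before to 50 nt after a start) from RefSeq gave sequence and strand; they list no C/D box gene under its own symbol. Coordinates count the first base as 1. The host was the protein-coding gene, otherwise the lncRNA gene, whose span holds the whole snoRNA gene, on the strand of its sites where known. Guide targets were assigned from general knowledge; genes with an unsure target were not classed. The limit allowed by a count of 0 is 3 counts.

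Named are the genes with the most sites (10, with ties), all U6 guides and processing snoRNAs, the 8 hosts with the most sites (with ties; 1 is not reported here), families of at least 3 genes, and genes with sequence. UBAP2, NOP56, SNORD21, the orphans with a site, the 5.8S guides, the rRNA guides, orphans and hosts without one, the genes that change host and the sites nearest the 3' end were named after their values were seen. Members and lists were chosen with earlier results of these data known. Gene and position finding was tested on simulated data: 362 of 362 planted sites in the SNORD spans were recovered. They gave 364 assignments, since a site in overlapping spans counts for each gene. The test checks the arithmetic only, not the placing of reads. Values were computed in Python 3.11.15 (pandas 2.3.3, numpy 2.4.6, scipy 1.17.1) and plotted with matplotlib 3.10.9.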

Additional observations from a re-analysis of the deposited data

How the results depend on the processing

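No paired analysis was possible because the deposited list has no value per library. The number of sites in C/D box genes stayed within 1.5 times of 396 when any base of the site or its first base had to lie in the gene, with spans widened by 10 nt, with sites joined within 10 nt, and with only sites on a known host strand (range 310 to 466). With sites joined within 50 nt it was 154. The share of genes with a site, 41.2%, was 34.8% with at least 2 sites required, 23.2% with at least 3, and 61.1% without SNORD113 to SNORD116. The share of sites in the first 20 nt, 44.4%, was 27.5% for a window of 15 nt and 55.1% for 25 nt, and 52.3% with sites from position -2 admitted, which was tried after seeing the data; that step took the share from 12.5% to 31.7% in H/ACA box genes and from 9.78% to 21.7% in small Cajal body RNA genes. The other 5 alternatives for C/D box genes gave 42.9% to 48.7%. The share of orphans with a site, 6.02%, was 53.3% without SNORD113 to SNORD116 and 15.6% with genes not classed counted as orphans. The shares for rRNA guides, U6 guides and protein-coding hosts stayed within their intervals; with lncRNA genes placed first, 72.7% of sites had a protein-coding host, and 7 genes changed host: SNORD10 (to SENP3-EIF4A1), SNORD84 and SNORD117 (to ATP6V1G2-DDX39B), SNORD87 (from MCMDC2 to SNHG6), SNORD143 and SNORD144 (to THAP9-AS1) and SNORD162 (to STX18-AS1). The planned offsets from box C gave no value. Sequence was at hand only for SNORD58B and part of SNORD121B, where the motifs of 6 and 7 letters had no match, and the other C/D box genes were not searched.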
